A study of Mus musculus with 15 samples.

Results

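The comparison of LbNOX with luciferase after a water gavage was read from 9 of the 15 mouse liver RNA-seq libraries of the study, 4 that carried LbNOX (M6 to M9) and 5 that carried luciferase (M1 to M5). It asks what the NADH oxidase did to liver mRNA levels when no ethanol was given. Members were chosen by the group names in the header of the deposited table, and genes with a value of 10 or more in at least 3 of the 15 libraries were tested, 13570 of 16330 genes listed. The other 6 libraries, 3 luciferase (M10 to M12) and 3 LbNOX (M13 to M15) after ethanol, entered the same fit. Liver was collected 6 h after the gavage in all groups. The sample labels give luciferase or LbNOX as the genotype, whereas the design text of the series names wild-type and ChREBP mice. Strain, age, the way in which the constructs were delivered and the cells that expressed them are not given in the sources used here. The labels do not say whether each library is its own mouse, so p-values measure the spread between these libraries.

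LbNOX is a bacterial enzyme that oxidizes NADH to NAD+ and reduces oxygen to water, and it is used to lower the NADH/NAD+ ratio inside cells. Luciferase, a light-producing enzyme, serves as the control protein. In the liver the cytosolic NADH/NAD+ ratio sets the direction of lactate dehydrogenase, malate dehydrogenase and glycerol-3-phosphate dehydrogenase, and NADH pressure is tied to the activity of ChREBP, the transcription factor encoded by Mlxipl that switches on genes of sugar use and fat synthesis. Water, unlike ethanol, adds no NADH through alcohol dehydrogenase.

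Depth recovered from the table was 13711526 to 23714943 reads in the water libraries. Alb, which encodes serum albumin, was the most abundant gene in every library, and the summed level of 10 hepatocyte markers was 829398 to 1025910.0 normalized counts in luciferase and 656062 to 1125340.0 in LbNOX water libraries. Levels below are normalized counts, in which each library was scaled by its own factor. Differences are LbNOX minus luciferase on the scale of log2(normalized count + 1), so 1 log2 unit is a 2-fold difference. Transcripts of LbNOX and luciferase were not analysed here. M3 and M8 stood apart along the first principal component, which held 27.6% of the variance of the 9 water libraries. M9 lay as far out on the other side as M8, and M4 stood alone on the second component (15.7%). M3 and M8 carried markers of exocrine pancreas and more endothelial and neutrophil markers, as given with the gene lists.

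No gene passed the test in the water comparison: limma called 0 of 13570 genes (0%) at a Benjamini-Hochberg adjusted p below 0.05, and the smallest adjusted p was 0.512, for Gbp10. At an unadjusted p below 0.05 there were 440 genes, 236 with a lower level in LbNOX livers (1.74% of genes tested) and 204 with a higher one (1.5%). Together they are 3.24% of genes, under the 5% that this threshold gives on average with no difference. On the recovered reads edgeR also called 0 genes, with 491 at an unadjusted p below 0.05, and DESeq2 called 18. The 2 groups did not overlap, every LbNOX library lying on one side of every luciferase library, for 84 genes that were lower in LbNOX livers (0.619%) and 43 that were higher (0.317%). The median difference over all genes was 0.01. The 95% interval of limma had a median half-width of 0.44 log2 units, and for 10214 genes (75.3%) it lay within a 2-fold difference in either direction. In simulated counts of this comparison, a 2-fold difference was recovered for 73.1% and a 1.5-fold difference for 25.4% of the genes changed. Only genes with a mean of at least 100 were changed there. Each gene was drawn on its own, without shifts of whole libraries such as M3 and M8, so recovery in the real data may be lower. Among real genes with that mean, 43 were lower and 43 higher by more than 2-fold, and limma called 0.

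**Figure D1:**
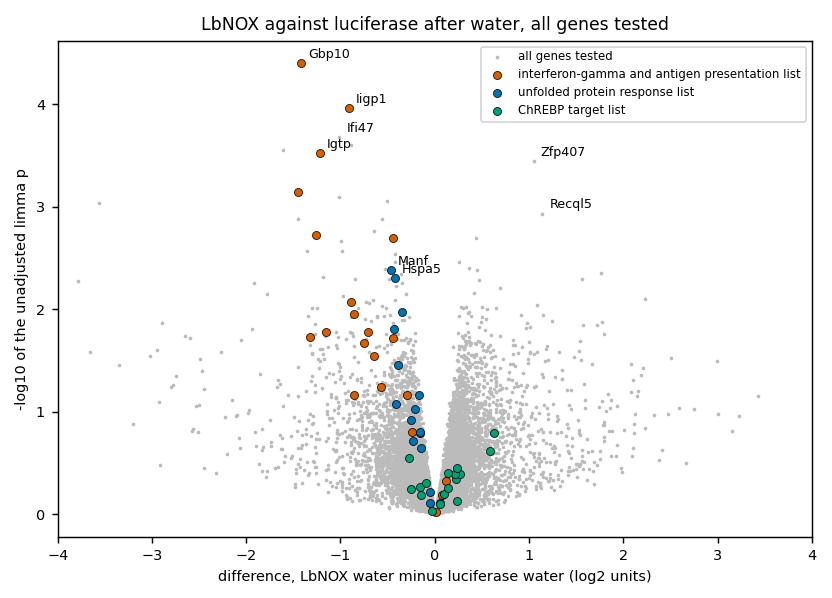
Difference between LbNOX and luciferase livers after water (horizontal, log2 units) against −log10 of the unadjusted limma p (vertical) for the genes tested; 7 genes with a difference beyond 4 log2 units are not drawn. Most genes of the interferon-gamma list lie on the left with Gbp10 at the top, 15 of the 16 of the unfolded protein response list lie left of 0 by less than 1 unit, and ChREBP targets lie low around 0.

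The 6 genes with the smallest p-values of all genes tested, Gbp10, Iigp1, Ifi47, Irgm1, Gm12250 and Igtp, encode interferon-inducible GTPases, and each had a lower level in LbNOX livers. Interferon-gamma signals through JAK kinases and induces 2 families of these GTPases, the immunity-related GTPases (IRG) and the guanylate-binding proteins (GBP), which attack the membranes around intracellular pathogens. Leaving predicted gene models aside, the 8 lower genes with the smallest p and a mean of at least 100 normalized counts were Gbp10, Iigp1, Ifi47, Irgm1, Igtp, Gbp3, Ube2l6 and Nfxl1, and 6 of them belong to these families. The families as such were singled out after these values had been seen. Their counts below are therefore no independent support, and the shares over all genes are not a like comparison. Members can also vary together, and some share reads. Of 9 IRG genes tested, 9 had a difference below 0, 8 had an unadjusted p below 0.05 and 5 did not overlap between the groups, against 1.74% and 0.619% of all genes; the median difference was −1.01. Of 10 GBP genes tested, 9 lay below 0, 6 had an unadjusted p below 0.05 and 3 did not overlap, with a median of −1.22. An 11th, Gbp4, was listed at 0 in the 9 water libraries. None passed limma's adjusted test. Of the IRG genes 7 lie on chromosome 11, and of the GBP genes 5 lie on chromosome 3 and 6 on chromosome 5 (GRCm38). In bulk liver, fewer cells that express a gene and less RNA per cell cannot be told apart.

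Among the IRG genes, Iigp1, an effector GTPase that acts on vacuoles of intracellular parasites, was the most abundant by normalized count. It stood at 22705, 25224, 27217, 19159.5 and 20404 normalized counts in luciferase libraries M1 to M5 and at 11060.0, 12596, 15466 and 9939.5 in LbNOX libraries M6 to M9. The highest LbNOX library, M8, lay below the lowest luciferase library, M4. The difference was −0.91 (95% interval −1.28 to −0.54, unadjusted p = 0.000105, limma adjusted p = 0.681). Igtp, known as Irgm3, is a regulatory IRG protein of endoplasmic reticulum and lipid droplet membranes. Its levels were 6939, 6006, 6231, 4838 and 5027 in luciferase and 2539, 2479.7, 4024 and 1477 in LbNOX livers, again without overlap and with M9 lowest (difference −1.22, interval −1.77 to −0.67). Irgm1, a regulatory IRG protein linked to autophagy and mitochondria, was at 3691, 3859, 3942, 4139 and 3156 in luciferase and 2032, 2025, 2584 and 1571 in LbNOX livers (difference −0.89, interval −1.28 to −0.49). Ifi47 was at 1389, 1276, 2109, 1294 and 1210.3 against 648, 636, 1089.6 and 553 (difference −1.01, interval −1.45 to −0.57). In each of these genes M8 was the highest of the LbNOX libraries, below the lowest luciferase library.

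Other IRG genes had wider spreads. Gm12250, also called Irgb10 and chosen after its values were seen, ranged from 439 to 907 in luciferase and from 146 to 438 in LbNOX livers, with the highest LbNOX value just below the lowest luciferase one (difference −1.61). Irgm2, a regulatory member, ranged from 2498 to 3751 against 1341 to 3016, and M8 lay inside the luciferase range (difference −0.71, unadjusted p = 0.0166). Tgtp1, an effector member, ranged from 3826 to 10946 against 1245 to 6485 (difference −1.32, unadjusted p = 0.0186). The unadjusted p rose to 0.0651 for Irgm2 and 0.078 for Tgtp1 without M9. Gm4951 had the smallest difference of the family, −0.27 (interval −0.60 to 0.06). Some of these loci cannot be separated with certainty by read counting: 83.2% of the 31-base words of Tgtp1 transcripts occur in Tgtp2, and 15.9% of those of Igtp occur in Irgm2, whose annotated span overlaps it. The sum of Tgtp1 and Tgtp2 was 7633 ± 3057 in luciferase (SD, n = 5) and 3362 ± 2262 in LbNOX livers (n = 4).

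**Figure D2:**
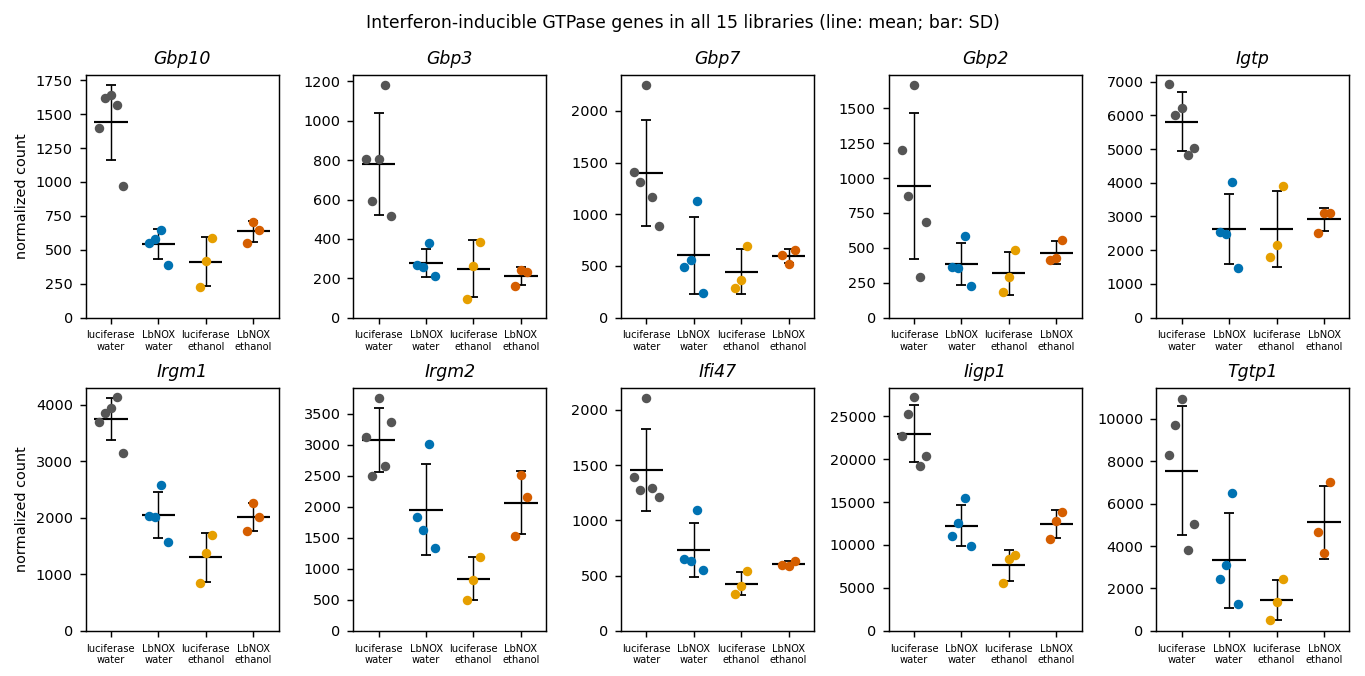
Normalized counts of 10 IRG and GBP genes (vertical axes, each from 0) in the 4 groups, 1 point per library with the group mean as a line and the SD as a bar. For Gbp10, Gbp3, Igtp, Irgm1, Ifi47 and Iigp1 every LbNOX water point lies below every luciferase water point, and the luciferase water group has the highest mean of the 4 groups in all 10 panels.

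Among the GBP genes, Gbp10 had the smallest p of the comparison. It stood at 1397, 1616, 1644, 1569 and 973 in luciferase and at 550.5, 577, 648 and 384 in LbNOX livers, a difference of −1.41 (interval −1.93 to −0.90, unadjusted p = 3.77e-05). Luciferase library M5 was the lowest of its group and still above each LbNOX library. Gbp10 and Gbp6 share much of their sequence, with 80.8% of the 31-base words of Gbp10 transcripts found in Gbp6, so their separate values are uncertain. Of the words of Gbp6, 67.8% occur in the gene model Gm43302, which the sum given below leaves out. Gbp6 was listed at 253, 384, 339.9, 177 and 168 in luciferase and at 0, 60.9, 0 and 0 in LbNOX livers. The sum of Gbp10 and Gbp6 was 1649.6, 2000.4, 1984, 1746 and 1141 in luciferase and 550.5, 638, 648 and 384 in LbNOX livers, a difference of mean log2 levels of −1.62 without overlap. Gbp3 was at 806, 592, 806, 1181 and 514 against 267, 258, 379.6 and 209 (difference −1.46, interval −2.18 to −0.73), likewise without overlap. Gbp7 ranged from 885 to 2251 against 239 to 1124 and Gbp2 from 293 to 1666 against 226 to 584, with differences of −1.36 and −1.16. The groups overlapped through M8 for Gbp7, and for Gbp2 through M4, which was as low as the LbNOX libraries. Gbp9 (difference −1.13), Gbp5 (−1.27), Gbp2b (−1.10) and Gbp11 (−0.48) were lower with wide intervals, and Gbp8, at 0 to 49.9 in luciferase and 0 to 36.2 in LbNOX livers, had a difference of 0.74 (interval −2.35 to 3.83).

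The promoters of these genes are shown because the genes shared the direction of their difference and are known to be induced through interferon-stimulated elements. Each sequence is the 250 bases before the RefSeq start on GRCm38.p6, read 5′ to 3′ on the gene's strand, with matches to GAAANNGAAA (the core of an interferon-stimulated element, searched on both strands) in capitals. Igtp lies on the + strand at chr11:58199306-58199555, Irgm1 on the − strand at chr11:48871421-48871670, Gbp3 on the + strand at chr3:142559794-142560043 and the type I interferon-induced gene Isg15 on the − strand at chr4:156200819-156201068.
Igtp: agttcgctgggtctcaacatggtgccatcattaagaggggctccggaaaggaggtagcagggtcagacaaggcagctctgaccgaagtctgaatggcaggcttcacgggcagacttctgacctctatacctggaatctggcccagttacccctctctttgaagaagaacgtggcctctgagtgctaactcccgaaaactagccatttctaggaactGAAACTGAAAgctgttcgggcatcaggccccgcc
Irgm1: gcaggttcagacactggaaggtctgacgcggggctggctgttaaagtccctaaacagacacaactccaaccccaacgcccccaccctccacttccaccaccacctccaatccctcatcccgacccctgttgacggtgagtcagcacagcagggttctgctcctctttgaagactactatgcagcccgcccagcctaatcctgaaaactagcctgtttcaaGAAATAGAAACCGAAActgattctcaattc
Gbp3: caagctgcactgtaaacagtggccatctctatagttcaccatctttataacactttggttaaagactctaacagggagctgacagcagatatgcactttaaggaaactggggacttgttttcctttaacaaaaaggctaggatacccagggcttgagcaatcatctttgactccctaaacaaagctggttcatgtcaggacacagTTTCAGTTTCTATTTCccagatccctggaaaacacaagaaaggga
Isg15: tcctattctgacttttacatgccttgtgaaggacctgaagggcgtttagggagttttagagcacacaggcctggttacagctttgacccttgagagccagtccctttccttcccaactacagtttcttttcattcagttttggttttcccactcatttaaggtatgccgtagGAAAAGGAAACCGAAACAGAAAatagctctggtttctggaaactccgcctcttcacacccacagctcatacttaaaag

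The match in Igtp began 34 bases before the start, Irgm1 and Gbp3 held 2 overlapping matches each and Isg15 held 3. Of 20 IRG and GBP genes, 12 had a promoter in the RefSeq table and 11 of these held GAAANNGAAA; the exception was Ifi47. Of all 27025 genes with a promoter there, 936 held it (3.46%). TTCNNNGAA, the palindromic core of a gamma-activated sequence, was in 7 of the 12 against 8.13% of all genes; in Igtp it lay 45 to 37 bases before the start, next to its GAAANNGAAA match at 34 to 25 bases. Of the 12 named genes with a lower level in LbNOX livers, some of them in these families, 9 had a promoter in the table, 5 of these held GAAANNGAAA and 2 held TTCNNNGAA. Of the 11 with a higher level, 7 had a promoter and 0 held either motif, a count that the shares over all genes would also give.  The families were singled out after their values had been seen and are known to be induced through interferon-stimulated elements. Their high share was therefore given in advance and says nothing about LbNOX. The near-identical Tgtp1 and Tgtp2 are both counted, and Gbp10 and Iigp1 had no promoter in the table. These are letter matches in a 250-base window and show no binding.

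The receptors, their kinases and Irf1 had differences nearer to 0 than the GTPases. Ifng, the cytokine itself, was at 1.17 to 10.8 counts in luciferase and 0.822 to 7.70 in LbNOX livers, close to the lower limit of detection (difference −0.61, interval −2.17 to 0.94). The receptor chains Ifngr1 and Ifngr2 had a difference of −0.06 (interval −0.51 to 0.39) and 0.13 (interval −0.28 to 0.54), and the kinases Jak1 and Jak2 of 0.04 and −0.14. Irf1, the transcription factor induced first by interferon-gamma, ranged from 812 to 1359 against 749 to 1204 (difference −0.25, interval −0.60 to 0.11), and the intervals of these 5 genes lay within 2-fold; the sign of Ifngr1, Ifngr2 and Jak1 changed with the libraries left out. Socs1, a feedback inhibitor of the JAK kinases, was at 39.0, 27.3, 63.2, 12.9 and 49.0 in luciferase and 0, 15.6, 19.3 and 0 in LbNOX livers. All genes of this paragraph other than Irf1 were added to the named genes after other values had been seen.

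The wider list of interferon-gamma response and antigen presentation genes had 22 members tested. Of these, 19 lay below 0 and 15 had an unadjusted p below 0.05, each with a lower level in LbNOX livers, against 1.74% of all genes; 6 did not overlap and the median was −0.80. The members include 8 of the GTPases above. Cxcl9, a chemokine that draws T cells, ranged from 501 to 2399 in luciferase and 379 to 606 in LbNOX livers (difference −1.26, interval −1.97 to −0.55). Genes of MHC class II presentation were lower by less: Cd74, the invariant chain, had a difference of −0.86, H2-Ab1 of −0.75, H2-Aa of −0.64 and the class II activator Ciita of −0.86. Psmb8, an immunoproteasome subunit, stood at 1153, 951, 1036, 997 and 939 in luciferase and 701, 704, 777 and 806 in LbNOX livers without overlap (difference −0.44, interval −0.69 to −0.19). Cd274, which encodes PD-L1, had a difference of −0.89 (unadjusted p = 0.00845). The class I genes H2-K1 (difference 0.08), H2-D1 (0.12) and B2m (0.01) had intervals within 2-fold, and the sign of H2-K1 and B2m changed with the library left out. The list median ran from −1.001 without M8 to −0.61 without M3.

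Type I interferon genes had differences below 0 whose size moved with 1 library, M4. Of 20 tested, 20 lay below 0, 7 had an unadjusted p below 0.05, against 1.74% of all genes, and 4 did not overlap, against 0.619%; the median was −0.75 and none passed limma's adjusted test. Luciferase library M4 was far above the others: Ifit1, which binds viral RNA, stood at 587, 429, 421, 3081 and 376 in luciferase and 315, 295, 242 and 277 in LbNOX livers. Isg15, a ubiquitin-like modifier, stood at 412, 249, 396, 1602 and 223 against 179, 141, 192 and 204 (difference −1.27, interval −2.24 to −0.30). Irf7, a transcription factor of this response, stood at 1375, 1039.7, 1543, 4042 and 934 against 779, 886, 728 and 942 (difference −0.88). Without M4 the list median was −0.45. The enzymes that attach Isg15 to proteins differed with M4 closer to its group. Uba7, the activating enzyme, was at 372, 385, 471, 585 and 644 in luciferase and 207, 213, 283 and 267 in LbNOX livers (difference −0.996, interval −1.57 to −0.42), and Ube2l6, the conjugating enzyme, at 2519.9, 2216, 2329, 3181 and 1933 and 1750.0, 1554, 1760.4 and 1701 (difference −0.51, interval −0.77 to −0.25). Neither gene overlapped between the groups. Xaf1, an interferon-induced gene of cell death, ranged from 247 to 772 against 160.2 to 199. Nfxl1, a zinc-finger gene, ranged from 223 to 321 against 157 to 238 (difference −0.56).

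Immune cell markers were measured beside these genes. The summed level of 12 T and NK cell markers was 145 to 525 normalized counts in luciferase and 237 to 334 in LbNOX livers, and of 11 tested 9 lay below 0 (median −0.31). The sum of 11 Kupffer cell and macrophage markers was 1810.5 to 4501 against 1969 to 3789, and 6 of 10 tested lay below 0 (median −0.13). The sum of 8 neutrophil markers was 135 to 275 against 117 to 326, and 6 of 7 lay below 0 (median −0.41). Without M3 the medians were −0.08 for T and NK cells and 0.04 for Kupffer cells, and without M8 −0.44 and −0.30; that of neutrophils was −1.02 without M8 and −0.15 without M9. No marker of these 3 lists was listed at 0 in all 9 water libraries. The group ranges of these sums overlapped for all 3, and M3 and M8 held the highest sums of the last 2. The sum of 8 B and plasma cell markers was 102 to 925 in luciferase, highest in M4, and 94.5 to 198 in LbNOX livers. Of these markers 3 were tested and 3 lay below 0 (median −0.54, and −0.11 without M4). At an unadjusted limma p below 0.05, 1 of 11 T and NK cell markers and 2 of 10 Kupffer cell markers were higher in LbNOX livers, against 1.5% of all genes. At that p 0 markers were lower, a count that the share over all genes, 1.74%, would also give. The part of immune cell number in the GTPase levels was not tested. Without M3 and M8 the differences were −1.46 for Gbp10, −0.96 for Iigp1 and −1.08 for Ifi47, against −1.41, −0.91 and −1.01 with them. Limma then called 2 genes, Ifi47 (adjusted p = 0.0271) and Tlr1, a toll-like receptor at 28.2, 21.8, 49.9, 23.5 and 27.0 in luciferase and 0, 0, 38.5 and 0 in LbNOX livers; without M8 alone it called Tlr1.

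DESeq2 on the recovered reads called 12 lower genes (0.0887% of 13531) and 6 higher ones (0.0443%). Of the 12, 8 were the interferon-induced Gbp10, Gbp3, Iigp1, Ifi47, Igtp, Irgm1, Gm12250 and Cxcl9, and Ube2l6 was a 9th. The DESeq2 adjusted p was 2.28e-05 for Gbp10 and 0.000325 for Iigp1, and between 0.00694 and 0.0262 for the other 7. Among the 18 calls, 6 rested on genes listed at 0 in 4 or more of the 9 water libraries, among them Qser1, listed at 481 in M5 and at 0 in the other 8, and Tpt1-ps3, listed at 1235 in M9, 180.2 in M8 and 0 elsewhere. The remaining 3 calls, Zfp407, Recql5 and Antxr2, were higher in LbNOX livers.

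Most genes of the unfolded protein response, many of them chaperones, had differences below 0 in LbNOX livers, and none passed the test. This response raises the folding capacity of the endoplasmic reticulum through the sensors ATF6, IRE1 and PERK. Of 16 genes tested, 15 lay below 0 and 5 had an unadjusted p below 0.05, against 1.74% of all genes; 6 did not overlap, against 0.619%, and the median was −0.22. Hspa5, the chaperone BiP, was at 16112, 13844, 13633, 13497 and 12954 in luciferase and 9917, 10927, 10663 and 10195 in LbNOX livers. Each LbNOX library lay below each luciferase library, and M1 was above the rest of its group (difference −0.42, interval −0.70 to −0.15, unadjusted p = 0.00502). Manf, a secreted factor that binds BiP, was at 2085, 1806, 1612, 1463 and 1689 against 1166, 1274, 1380.0 and 1165, without overlap (difference −0.47, interval −0.76 to −0.17, unadjusted p = 0.00416). Creld2, an endoplasmic reticulum foldase-like protein, was at 1167, 1002, 788, 835 and 822 against 572, 742, 671 and 723 (difference −0.44, interval −0.78 to −0.10). Hyou1, a large chaperone of the same compartment, ranged from 1775 to 2364 against 1475 to 1917 (difference −0.34), and Sdf2l1 from 396 to 449 against 280.2 to 377 (difference −0.39). Dnajb11 and the disulfide isomerase Pdia4 did not overlap either, with differences of −0.16 and −0.21.

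The other members had smaller differences or intervals that reached 0. Hsp90b1 had a difference of −0.41 with a wide interval (−0.89 to 0.06), Xbp1, the transcription factor spliced by IRE1, of −0.26, Calr of −0.16 and Edem1, which sends misfolded proteins to degradation, of −0.05. Herpud1 was the member above 0 (difference 0.06, interval −0.40 to 0.52), and its sign changed when M3 or M6, among others, was left out. The intervals of all 16 lay within 2-fold. The level of the list, the median over its genes of the difference from each gene's mean over the 9 water libraries, ran from 0.05 to 0.17 in luciferase and from −0.22 to −0.09 in LbNOX livers, and M3 and M8 lay among the others of their groups. The list median was −0.25 without M3 and M8, and ran from −0.25 without M3 to −0.16 without M4. Of 20 integrated stress response genes, 13 lay below 0 with a median of −0.12; Atf5, a transcription factor of that response, had a difference of −0.52 (unadjusted p = 0.00974), and Sesn2, a stress-induced regulator, had the other unadjusted p below 0.05, with a difference of 0.29. Of 13 heat shock genes, 9 lay below 0 and 0 had an unadjusted p below 0.05, against 3.24% of all genes (median −0.12, which was −0.22 without M3 and −0.02 without M1).

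**Figure D3:**
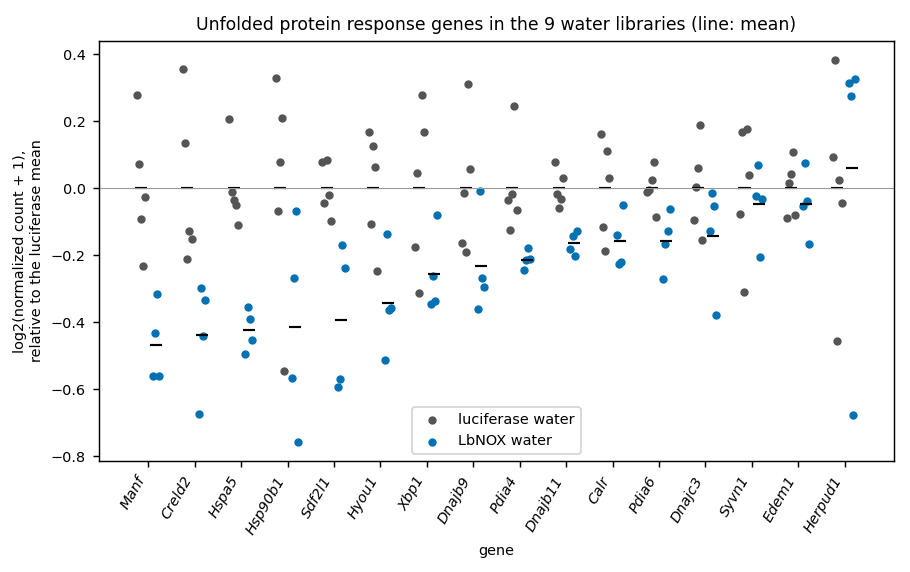
Levels of 16 unfolded protein response genes in the 9 water libraries, as log2(normalized count + 1) relative to the luciferase mean of each gene (vertical), ordered by the difference; points are libraries and short lines are group means. Manf, Hspa5, Creld2, Sdf2l1, Dnajb11 and Pdia4 show all LbNOX points below all luciferase points, and Herpud1 has its LbNOX mean above 0.

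Fewer genes were higher than lower in LbNOX livers without overlap, 43 against 84. Zfp407, a zinc-finger gene, was at 231, 152, 239, 151 and 153 in luciferase and 412, 374, 404 and 319 in LbNOX livers (difference 1.05, interval 0.56 to 1.53, limma adjusted p = 0.7). Recql5, a DNA helicase, was at 216, 139, 161, 151 and 168 against 448, 469.5, 295 and 289 (difference 1.14, interval 0.54 to 1.75). In both genes the lowest LbNOX library was above the highest luciferase library. Antxr2, a receptor of collagen VI and of anthrax toxin, had the narrowest spread, at 637, 639.8, 659.9, 662 and 637 against 760.0, 779.7, 804 and 753 (difference 0.26, interval 0.10 to 0.42). Myh14, a non-muscle myosin heavy chain, had a difference of 0.43, the lipid transfer gene Pitpnm2 of 0.36, the splicing regulator Rbm4 of 0.45 and Adamts7, a secreted protease, of 0.69. Genes of lipid and drug metabolism among them were the acyl-CoA thioesterase Acot6 (difference 0.47), the acyl-CoA dehydrogenase Acad12 (0.50) and the cytochrome P450 Cyp3a59 (0.60, from 1183 to 2512 against 2549.7 to 3143). Cyp3a11, the main drug-metabolizing member of that family, had a difference of 0.34 and did not overlap. Dennd3, which acts in membrane traffic, had a difference of 0.65 (interval −0.02 to 1.32) with M8 highest, and without M8 its unadjusted p was 0.189.

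Most genes of NADH transfer and of the pathways it feeds had small differences between the constructs after water. Of 31 genes of NADH, carbohydrate, lipid and ethanol metabolism, 0 had an unadjusted p below 0.05, a count that the share over all genes, 3.24%, would also give. For 25 the 95% interval lay within a 2-fold difference, against 75.3% of all genes. Ldha, which interconverts pyruvate and lactate, came closest to the threshold, at 9755, 8462, 10236, 11924 and 8890.2 in luciferase and 7639, 8258, 8354 and 7325 in LbNOX livers without overlap (difference −0.31, interval −0.62 to 0.00, unadjusted p = 0.0509). The cytosolic glycerol-3-phosphate dehydrogenase Gpd1 was at 6933 ± 2678 against 6889.8 ± 742 (SD, n = 5 and 4; difference 0.06, interval −0.41 to 0.53), and the mitochondrial Gpd2 had a difference of 0.02 (interval −0.31 to 0.35). Of the malate-aspartate shuttle, Mdh1 had a difference of 0.19 and Got1 of 0.20. Slc25a13, the aspartate-glutamate carrier, was listed at up to 289 in luciferase and up to 411 in LbNOX livers. It was at 0 in part of the libraries and could not be compared. Nampt, the rate-limiting enzyme of NAD+ salvage, had a difference of −0.18 (interval −0.42 to 0.06), Nmnat1 of 0.19, the NAD+-dependent deacetylase Sirt1 of 0.11 and the transhydrogenase Nnt of 0.27 (interval −0.51 to 1.05).

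For ChREBP and its 17 targets tested, the differences were at most 0.63 in either direction. The intervals of 13 of the 17 lay within 2-fold, against 75.3% of all genes, so larger differences of the others are not excluded. Mlxipl itself was at 1719.7, 2071, 1484, 2352 and 3370.2 in luciferase and 2432, 2445, 1785 and 3412 in LbNOX livers (difference 0.22, interval −0.33 to 0.76). Of 17 ChREBP targets tested, 11 lay above 0 and 0 had an unadjusted p below 0.05, against 3.24% of all genes. Their median was 0.14, which was −0.01 without M3 and 0.22 without M4. Pklr, the liver pyruvate kinase, had a difference of −0.03 (interval −0.83 to 0.78), Acly, which makes cytosolic acetyl-CoA, of 0.10 (interval −0.33 to 0.53), Txnip, an inhibitor of thioredoxin, of 0.24 and the transcription factor Klf10 of 0.14. G6pc, which releases glucose from glucose 6-phosphate, was at 3287, 4455, 1029.7, 3746 and 4605 against 6136, 6243, 2500.4 and 5119; the groups overlapped, and the interval of −0.28 to 1.54 reached beyond a 2-fold difference. The secreted factors Fgf21 (difference −0.14, interval −0.81 to 0.53) and Gdf15 (−0.06, interval −0.46 to 0.33) had intervals within 2-fold. Fasn had a difference of 0.08, Acaca of 0.09 and Scd1, a fatty acid desaturase, of −0.58 (interval −1.57 to 0.41). Gckr was listed at 176, 0, 136, 0 and 186 in luciferase and 28.8, 0, 0 and 0 in LbNOX livers, levels at which 0 may be a failed estimate. The ethanol-metabolizing genes Adh1 (difference −0.03), Aldh2 (0.18) and Cyp2e1 (0.37) and the bile acid enzyme Cyp7a1 (0.33) did not pass either.

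**Figure D4:**
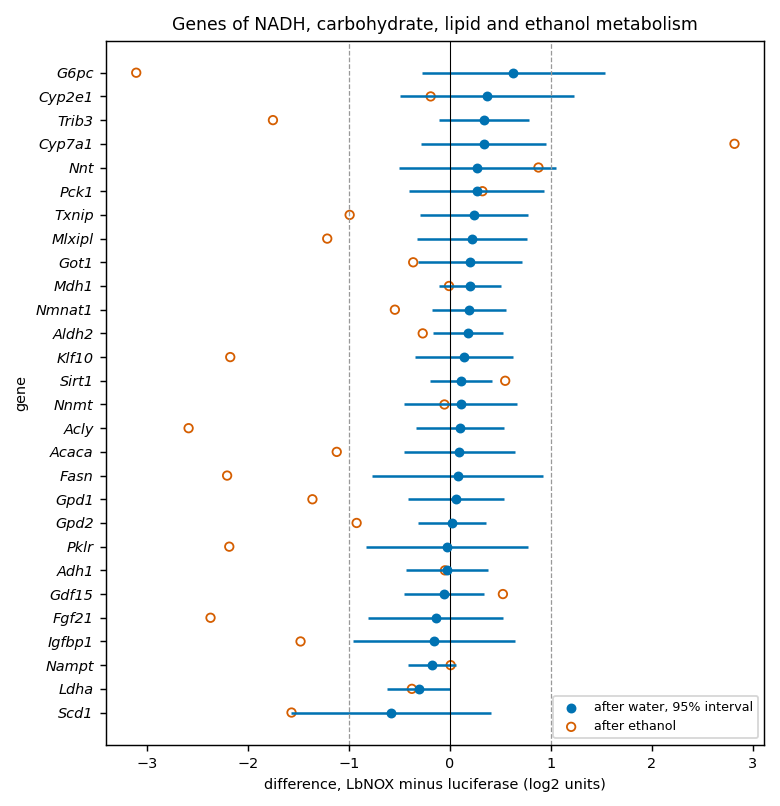
Difference between LbNOX and luciferase livers (horizontal, log2 units) for 28 of the 31 metabolic genes after water (filled, with the 95% interval of limma) and after ethanol (open, no interval drawn); dashed lines mark a 2-fold difference. Gckr and Slc25a13 are left out because they were listed at 0 in part of the libraries, and 1 gene is not reported here. Water points lie between −0.58 for Scd1 and 0.63 for G6pc, while the ethanol points of G6pc, Acly, Fgf21, Fasn, Pklr and Klf10 lie left of −2.

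Most members of several metabolic lists had small differences above 0. Of 30 oxidative phosphorylation subunits, 30 lay above 0 and 0 had an unadjusted p below 0.05, against 3.24% of all genes (median 0.15, largest 0.26). Of 16 genes of gluconeogenesis and amino acid catabolism, 16 lay above 0, where 7024 of all 13570 genes lay, and the median was 0.25. In that list 1 gene had an unadjusted p below 0.05, Oat, ornithine aminotransferase (0.44), a count that the share over all genes, 3.24%, could also give. Of 24 NAD metabolism genes 18 lay above 0 (median 0.10), and of 16 genes of NADH shuttles and lactate exchange 12 did (median 0.09). Of 15 xenobiotic genes 14 lay above 0 (median 0.30), of 11 pericentral hepatocyte markers 9 did (median 0.22) and of 11 periportal markers 9 did (median 0.36). The medians of these lists moved with M3 and M8: that of oxidative phosphorylation was 0.02 without M3 and 0.29 without M8, and that of gluconeogenesis 0.11 and 0.48; that of the NADH shuttles was −0.04 and that of NAD metabolism 0.01 without M3. That of the xenobiotic list was 0.07 without M3 and 0.40 without M8, that of the pericentral markers 0.04 without M3 and 0.38 without M8 and that of the periportal markers 0.14 without M3 and 0.59 without M8. The level of the oxidative phosphorylation list was −0.59 in M3 and −0.32 in M8, the lowest of each group.

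**Figure D5:**
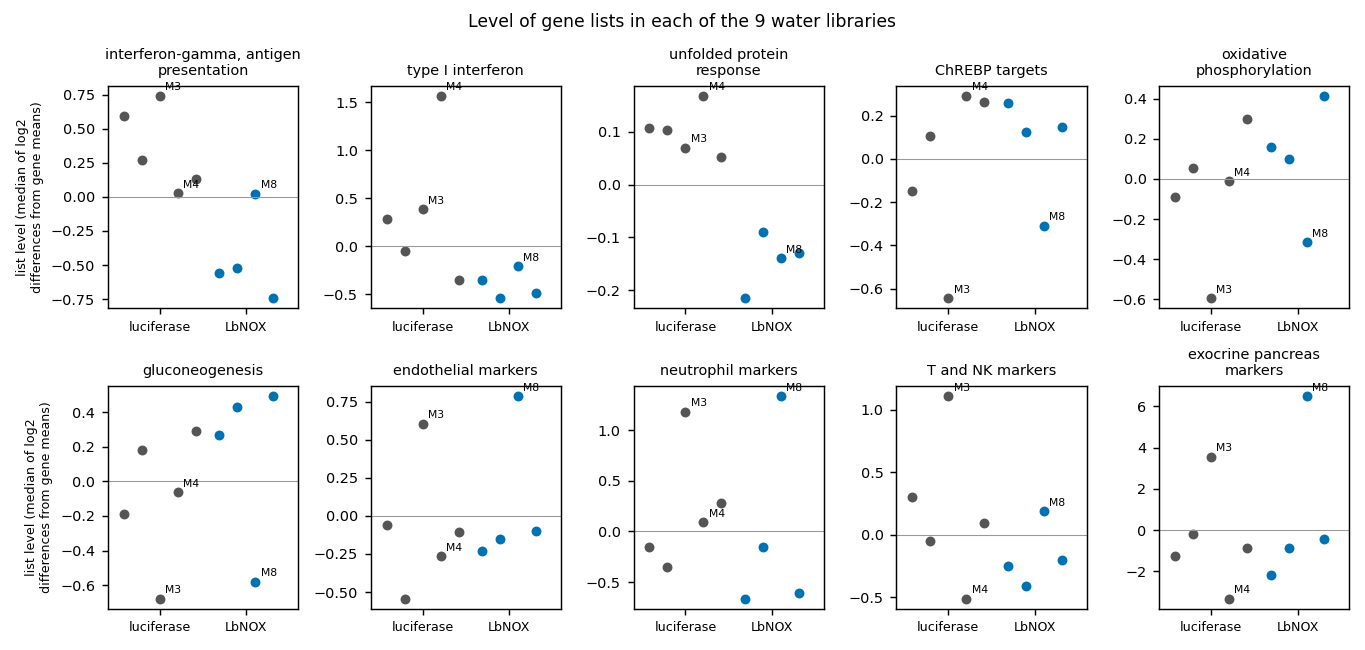
Level of 10 gene lists in the 9 water libraries, 1 point per library: the median over the genes of a list of log2(normalized count + 1) minus the gene's mean over the 9 libraries (vertical; scales differ between panels). The unfolded protein response list separates the groups, the interferon-gamma list does so by a small margin, M4 stands high for type I interferon genes, and M3 and M8 stand high for endothelial, neutrophil and pancreas markers.

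M3 and M8 differed from the rest in the same direction, 1 in each group. The summed level of 11 exocrine pancreas markers was 1399.6 normalized counts in M3 and 10549 in M8, against 59.98 to 138 in the other 7 water libraries. The list level of endothelial markers was 0.61 in M3 and 0.79 in M8, and between −0.54 and −0.06 in the others. The part of these libraries in the metabolic list medians was not tested beyond the values without them.

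The LbNOX difference after water was set against that after ethanol, and the difference between them was tested. The test of that difference uses the same water libraries, so it adds the ethanol libraries and is no second reading of the water difference. Over the 4 groups the luciferase water livers had the highest mean level of each of the 9 IRG genes. Gbp10 was at 1439.9 ± 278 in luciferase (SD, n = 5) and 539.7 ± 111 in LbNOX livers (n = 4) after water, and at 411 ± 181 and 636 ± 76.2 after ethanol (n = 3 each). After ethanol the LbNOX livers were not below the luciferase livers: the difference was 0.73 for Gbp10 (SE 0.30) and 0.73 for Iigp1 (SE 0.21), neither past the adjusted test. Of the 9 IRG genes 3 were called higher in LbNOX livers after ethanol (2.24% of all genes), Irgm2 (1.36), Tgtp2 (1.94) and Gm4951 (1.01), and of the GBP genes Gbp11 was (1.86).

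The ethanol-minus-water difference passed limma's adjusted test, upward, for 8 of 9 IRG genes and 2 of 10 GBP genes, against 0.427% of all genes; 1.25% passed downward. These families were singled out after their low water differences had been seen, and that difference is subtracted here. The counts are therefore no independent support, and the share over all genes is not a like comparison. The ethanol-minus-water difference was 2.14 for Gbp10 (SE 0.38, limma adjusted p = 0.0128) and 1.64 for Iigp1 (SE 0.27, limma adjusted p = 0.00847), and both calls held with any 1 of the 15 libraries left out. It was 1.56 for Irgm1 (adjusted p = 0.0169), a call that ended without M15 (adjusted p = 0.0527). It was 2.07 for Irgm2, 1.54 for Ifi47 and 3.34 for Tgtp1. The calls ended for Irgm2 without M6, M7, M10, M14 or M15, for Ifi47 without any of M1, M6, M7, M9, M10, M13, M14 and M15, and for Tgtp1 with any of 12 libraries left out other than M4, M8 and M12, with limma adjusted p up to 0.0746, 0.0978 and 0.134. Gbp11 (2.34) lost its call without M6, Gm4951 (1.27) and Tgtp2 (3.12) without M10 or M15, and Gm12250 (2.60) without the same 8 libraries as Ifi47. Irf1 (1.29) lost it without M6, M7, M9, M10, M12, M14 or M15, and Cd274 (2.23) without M6, M7, M10, M14 or M15. Igtp did not pass (1.45, adjusted p = 0.0955).

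Zfp407 was opposite in the 2 gavages, 1.05 after water and −1.13 after ethanol, where its levels were 305, 237 and 384 in luciferase and 88.6, 189 and 155 in LbNOX livers. The difference of −2.18 (SE 0.36, adjusted p = 0.0081) held with any 1 library left out. For the unfolded protein response the median difference after ethanol was 0.12, and 0 of 16 genes passed the test of the difference; Manf came closest (0.90, adjusted p = 0.0518). Of the 31 metabolic genes, 6 passed it: Acly (−2.69), G6pc (−3.74), Klf10 (−2.32), Trib3, a stress-induced pseudokinase (−2.09), Fgf21 (−2.23) and Cyp7a1 (2.49). The call of Acly, Klf10 and Trib3 held with any 1 library left out; that of G6pc ended without M10 or M15 (adjusted p up to 0.0525), that of Cyp7a1 without M15 (0.052) and that of Fgf21 with any of 10 libraries left out, among them M1, M10 and M15 (up to 0.111).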

How the data were processed

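Per the labels' protocols, liver RNA was column-purified and KAPA mRNA libraries were prepared. Salmon (1.5.1), the mm10 build and DESeq2 (1.30.1) are listed in the submitters' processing notes without their roles. The values the authors deposited are a signal, in the form of counts divided by a factor of each library; per the file headers a column carries its group and a name from M1 to M15. Replicate numbers are not in the headers. All 244950 values lay within 0.001 of whole multiples of the library's smallest step, which gave the recovered reads.

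The test was limma 3.58.1 (R 4.3.3), trend and robust, on log2(normalized count + 1), 1 fit over 15 libraries and 4 groups, for genes that reached 10 in 3 or more libraries, with Benjamini-Hochberg adjustment over 13570 genes. Alternatives were edgeR 4.0.16 and DESeq2 1.42.0 on recovered reads, other filters, scaling and pseudocounts, and left-out libraries. The fit was tested on simulated data. Members, gene lists and tests were chosen with earlier results of these data known. Genes named are the 8 smallest p-values each way with a mean of 100 or more, the 8 largest non-overlapping differences each way, 31 metabolic genes, list members by smallest p, and families added afterwards; predicted gene models are named only where said. A few genes are not reported here. Names altered to dates (23 genes) are not used. Genes were placed with GENCODE vM21 and promoters came from RefSeq, both on GRCm38. Shared 31-base words were counted over GENCODE transcripts. Depth was 13711526 to 23714943 reads in water libraries, and 78 genes with a median of at least 100 were listed at 0 in some library, where 0 may be a failed estimate.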

Additional observations from a re-analysis of the deposited data

Results flagged for a closer look

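Single libraries stood apart from the rest of their group in 27 of the 240 group values examined. Chance gives about 5% of such flags for independent, unselected values. The genes examined were picked, many vary together and some are mostly at 0, so that rate is not a like comparison. In M4, the luciferase library with high type I interferon genes, Isg15 was at 1602, Ifit1 at 3081, Xaf1 at 772 and Irf7 at 4042 normalized counts, above the other 4 luciferase libraries, and the chaperone Pdia4 was at 5017. In M3, the highest of the luciferase group was Ifi47 at 2109, Gbp9 at 806, Gbp5 at 127, Cd274 at 326, Ifngr1 at 613 and Tlr1 at 49.9. Hspa5 was at 16112 in M1, the highest of that group. In M8, above the other LbNOX libraries, Cd74 was at 794, Irf1 at 1204, Ifngr1 at 452 and Tlr1 at 38.5, and the level of the Kupffer cell list was 0.45 and that of the endothelial list 0.79. Herpud1 and Mtx3, a mitochondrial import gene, were lowest in M8, at 2531 and 431, and H2-D1 highest in M9, at 23699. Genes listed at or near 0 in most libraries gave Gckr at 28.8 in M6, Gbp6 at 60.9 in M7, Qser1 at 481 in M5, Tpt1-ps3 at 1235 in M9, and Slc25a13 at 289 in M5 and 411 in M9.

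For 19 of the genes named, the LbNOX difference after ethanol departed from that after water by limma's adjusted test. Ethanol minus water, the departure on the log2 scale was 2.14 for Gbp10, 2.34 for Gbp11, 1.64 for Iigp1, 1.54 for Ifi47, 1.56 for Irgm1, 2.07 for Irgm2 and 3.34 for Tgtp1. It was 3.12 for Tgtp2, 2.60 for Gm12250, 1.27 for Gm4951, 2.23 for Cd274 and 1.29 for Irf1; for these 12 genes the water difference was below 0. It was −2.18 for Zfp407, −2.69 for Acly, −3.74 for G6pc, −2.32 for Klf10, −2.09 for Trib3, −2.23 for Fgf21 and 2.49 for Cyp7a1. The libraries whose removal ends each call are given with the comparison of the gavages.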

How the results depend on the processing

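The count of genes called after water stayed at 0 under quantile normalization, 3 other filters, a pseudocount of 10, no trend, a fit of the 9 water libraries and edgeR. It was 18 with DESeq2 and 2 without M3 and M8, and with each library left out in turn it ran from 0 to 1 (Tlr1 without M8, Gbp10 without M10). The count for the ethanol-minus-water difference, 227, was 633 with DESeq2 and 382 without M3 and M8, the latter chosen after seeing the data. With each library left out it ran from 70 (without M15) to 402 (without M8), and it was also below 151 without M1, M6, M7, M9, M10, M12 or M13. No paired analysis was possible because the columns carry no replicate number. Over 110 genes named and 25 alternatives, 2709 of 2736 differences moved by less than 1 SD without a change of call, 18 became calls in the same direction, 14 of them with DESeq2, and 9 moved by more, 8 of these for Gbp6, Tlr1, Qser1 and Tpt1-ps3, which have libraries at 0. Many of these values could not move: other filters, no trend, the fit of the 9 water libraries and leaving out an ethanol library change a water call but not its difference. Gbp6 was −3.999 with a pseudocount of 10, −4.06 with edgeR and −4.12 with DESeq2. A sign changed under some alternative for 22 genes, among them H2-K1, B2m, Herpud1, Ifngr1, Ifngr2 and Jak1. With 4 and 5 libraries a group, differences under 2-fold often could not be detected, and larger ones such as that of Gbp10 did not pass.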

Other observations

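Other lists also had most members on 1 side of 0 with few small p-values, and 1 library moved most of their medians. Of 16 acute phase genes 14 lay below 0 (median −0.22), of 18 proliferation genes 16 (median −0.23; Ccna2, a cyclin of S phase, −0.51) and of 22 cholesterol genes 18 (median −0.06). Of 20 NADH-producing mitochondrial dehydrogenases 19 lay above 0 (median 0.13), and of 16 bile acid genes 14 (median 0.20). The median was −0.36 without M1 and −0.09 without M4 for acute phase genes, −0.39 without M4 and −0.13 without M3 for proliferation, −0.14 without M1 and −0.05 without M3 for cholesterol genes, 0.03 without M3 and 0.21 without M8 for the dehydrogenases and 0.11 without M3 and 0.35 without M8 for bile acid genes. The Kupffer cell markers Clec4f (1.17) and Folr2 (2.19) were higher in LbNOX livers at an unadjusted p below 0.05, against a list median of −0.13. Gvin1, a very large interferon-inducible GTPase chosen after its values were seen, was at 1787, 2119, 5999.7, 4737 and 1660.1 in luciferase and 751, 1233, 2486 and 861 in LbNOX livers after water (difference −1.25).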
